A study of Mus musculus with 13 samples.

Results

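The regions described here carried the active histone mark H3K27ac at a higher mean level in macrophages given IL-10 in the last 30 min of an LPS stimulation than in every other group of the study. Single libraries could still overlap between groups. They were chosen from the deposited values themselves. Among consensus regions under 20 kb wide, the rule kept those whose mean log2(value + 1) over the 3 late IL-10 libraries was 4 or more and exceeded the highest of the 3 other group means by 1.5 or more. It found 973 of 38900 such regions, and the files hold 40691 regions in all. The values that chose the regions are therefore given as a description with no test. The same rule turned to the other groups kept 362 regions high only with continuous IL-10, 745 high only with LPS alone and 5705 high only in untreated cells.

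The mark was profiled by ChIP-seq in mouse macrophages that had been grown from bone marrow precursors with M-CSF. All cells, the untreated ones included, had the genotype IL10-/-RAG2-/- on the 129S6/SvEvTac strain. Such cells cannot produce IL-10 themselves, and Rag2 loss leaves the animals without mature lymphocytes of the T and B lineages. The 4 groups were LPS for 195 min with IL-10 added for the last 30 min (late IL-10), LPS with IL-10 at 1 ng/mL throughout the 195 min (continuous IL-10), LPS alone at 1 ng/mL for 195 min, and no treatment, with 3 libraries each from 3 independent pools of macrophages. LPS was given at 1 ng/mL in every group that received it. The labels give no separate dose for late IL-10, and neither sex nor age of the animals was used here.

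IL-10 is an anti-inflammatory cytokine. Its receptor signals through the kinases Jak1 and Tyk2 to the transcription factor STAT3, which binds DNA at paired half-sites called GAS elements and induces genes that restrain the response to LPS, the bacterial lipopolysaccharide sensed by TLR4. H3K27ac, the acetyl mark on lysine 27 of histone H3, is laid down by CBP-family acetyltransferases at active promoters and at active enhancers, which may lie far from the gene they control.

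The files hold no sequence of the regions, but 53 of the 973 contained a gene start of the RefSeq promoter table (GRCm38.p6, the build of mm10), which gave 62 promoter windows of 250 bases before a start, from 54 genes. The GAS pattern TTCNNNGAA, which reads the same on both strands, was found in 9 of the 62 windows (14.5%), against 5.78% of the 10685 windows inside any consensus region and 6.58% of all 21263 windows. Counted by gene it was in 7 of 54 genes (13.0%), against 6.60% of genes with a window in any region and 7.65% of all genes. The AP-1 pattern TGANTCA was in 7 of the 62 windows (11.3%), against 4.08% and 6.13%. By gene, AP-1 was in 6 of 54 (11.1%), against 4.64% and 7.19%. The NF-kB pattern GGGANTTTC was in 2 windows (3.23%), against 0.739% of windows in any region and 0.917% of all windows, but both were overlapping windows of Sphk1. The ISRE core GAAANNGAA was in 5 (8.06%), against 6.28% and 6.84%, and the C/EBP pattern TTGCNNAA in 7 (11.3%), against 7.47% and 9.09%. The ISRE matches lay in overlapping windows of Sphk1, overlapping windows of Serpina3f and a window of Mmp13. Overlapping windows of Serpina3f were also among those with C/EBP. The E-box CACGTG was in 7 (11.3%), against 8.69% and 6.63%, with overlapping windows of Sphk1 among them. CRE (TGACGTCA) was in 1 (1.61%), against 2.84% and 1.92%, and the PU.1 core GAGGAAGT in 0, against 2.44% and 2.23%. Each was searched on both strands, and the GAS and ISRE patterns can overlap each other. These matches are descriptions of the letters in a window and not measured binding. Plus-strand promoters of 6 genes with a GAS match within 150 bases of the start are printed, 1 window per gene, as stretches of known sequence that hold the pattern of a STAT site. Not printed are a minus-strand window of Map2k4 with a match, and further windows of Sphk1 and Serpina3f that hold the same matches. Each line is the 150 bases before a start, with every GAS match in capitals.
Tnfrsf9: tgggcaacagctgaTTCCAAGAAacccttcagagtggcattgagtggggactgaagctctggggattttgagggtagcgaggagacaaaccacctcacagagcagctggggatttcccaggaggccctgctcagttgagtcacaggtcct
Steap4: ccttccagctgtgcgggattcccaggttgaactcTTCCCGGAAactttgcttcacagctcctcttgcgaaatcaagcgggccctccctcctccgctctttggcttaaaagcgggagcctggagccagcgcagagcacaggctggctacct
Casp12: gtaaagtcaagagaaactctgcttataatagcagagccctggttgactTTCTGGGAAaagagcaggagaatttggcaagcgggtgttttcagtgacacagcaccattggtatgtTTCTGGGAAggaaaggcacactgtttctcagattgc
Sphk1: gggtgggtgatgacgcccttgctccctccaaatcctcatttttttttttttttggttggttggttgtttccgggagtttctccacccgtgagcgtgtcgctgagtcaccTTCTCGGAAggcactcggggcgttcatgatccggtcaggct
Serpina3f: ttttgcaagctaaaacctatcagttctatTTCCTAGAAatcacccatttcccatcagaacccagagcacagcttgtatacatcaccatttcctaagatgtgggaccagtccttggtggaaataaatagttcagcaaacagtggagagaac
Serpina3i: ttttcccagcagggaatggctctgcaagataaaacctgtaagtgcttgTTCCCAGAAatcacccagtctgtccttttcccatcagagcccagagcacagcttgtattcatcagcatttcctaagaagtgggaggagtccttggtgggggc
They lie at chr4:150927849-150927998, chr5:7960322-7960471, chr9:5345326-5345475, chr11:116531687-116531836, chr12:104214394-104214543 and chr12:104262972-104263121, in the order printed. The Casp12 window held 2 matches, beginning 102 and 36 bases before the start. The H3K27ac values of these promoters are given further on.

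Before any result, the libraries themselves need a description. Every deposited value was a whole number of reads times 1 factor per library, and no value lay under 1 read, which was worth between 0.419 and 1.97 units of signal. The reads recovered per library were between 5149730 and 26922552. Replicate 3 stood apart in the regions chosen here. It was the lowest of the 3 late IL-10 libraries in 800 of the 973 regions (82.2%), against 47.6% of all regions under 20 kb, and it lay below the mean of replicates 1 and 2 by a median of 1.48 on the log2 scale (-1.48), against -0.13 over the 23282 regions with a late IL-10 mean of 4 or more. The regions high only with LPS showed the same order, with LPS replicate 3 the lowest in 77.2% of them. Of the regions, 46 lay at 1 read in late IL-10 replicate 3, and 659 lay at 1 read in LPS replicate 3, against 343 and 374 in LPS replicates 1 and 2. Without replicate 3 of every group, a choice made after seeing the data, the rule kept 981 regions, of which 729 were among the 973. Without late IL-10 replicate 3 alone it kept 2089.

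The summed signal over regions assigned to 8 macrophage markers was between 32812 and 42286 in late IL-10 libraries, between 37706 and 43504 with continuous IL-10, between 35798 and 51982 with LPS, and between 35557 and 47090 in untreated cells. Of 8 T-cell markers, 6 had a region, and their sum was between 965 and 1430 with late IL-10, between 425 and 580 with continuous IL-10, between 850 and 1007 with LPS and between 444 and 624 in untreated cells. The sum over neutrophil markers was between 3013 and 3125 with late IL-10, between 3625 and 4064 with continuous IL-10, between 2353 and 2701 with LPS and between 2912 and 4353 in untreated cells. For dendritic cell markers it was between 8293 and 17668 with late IL-10, between 6234 and 10904 with continuous IL-10, between 10303 and 22753 with LPS and between 7226 and 9055 in untreated cells, and for fibroblast markers between 7078 and 16466 with late IL-10, between 8477 and 17789 with continuous IL-10, between 6095 and 13775 with LPS and between 7251 and 9770 in untreated cells. For B-cell markers it was between 2016 and 3067 with late IL-10, between 1806 and 2561 with continuous IL-10, between 1552 and 2046 with LPS and between 2509 and 3246 in untreated cells. For erythroid and mast cell markers, the lowest sums, it was between 100 and 262 with late IL-10, between 103 and 208 with continuous IL-10, between 155 and 242 with LPS and between 57.8 and 69.99 in untreated cells. The late IL-10 range overlapped that of at least 1 other group for every list. It lay above continuous IL-10 and untreated cells for T cells, above untreated cells for erythroid and mast cells, and below continuous IL-10 and above LPS for neutrophils. Of the marker regions under 20 kb, those among the 973 were 2 of 17 for macrophages, both in Mertk, 1 of 7 for neutrophils, at Mmp8, and 1 of 12 for fibroblasts, at Col1a1, against 2.50% of all regions. None of 9 for T cells, 16 for dendritic cells, 4 for erythroid and mast cells or 2 for B cells was among them. The part of other cell types in the results was not tested.

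The typical region was strong with late IL-10, weak with LPS in either other form, and near the lowest possible value in untreated cells. The median of the group means over the 973 regions was 6.17 on the log2 scale with late IL-10, 3.08 with continuous IL-10, 2.85 with LPS and 1.11 in untreated cells. In deposited signal, the median region had 113, 118 and 38.1 in late IL-10 replicates 1, 2 and 3. With continuous IL-10 it had 16.9, 11.4 and 2.96. With LPS it had 15.7, 11.8 and 0.464, the last being 1 read, and in untreated cells the median lay at 1 read in every library. No library of the group held more than 3 reads in 174 regions with continuous IL-10 (17.9%), in 256 with LPS (26.3%) and in 494 in untreated cells (50.8%), against 15.3%, 13.4% and 16.5% of all regions under 20 kb. The next highest group after late IL-10 was continuous IL-10 in 493 regions, LPS in 378 and untreated cells in 102.

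**Figure D1:**
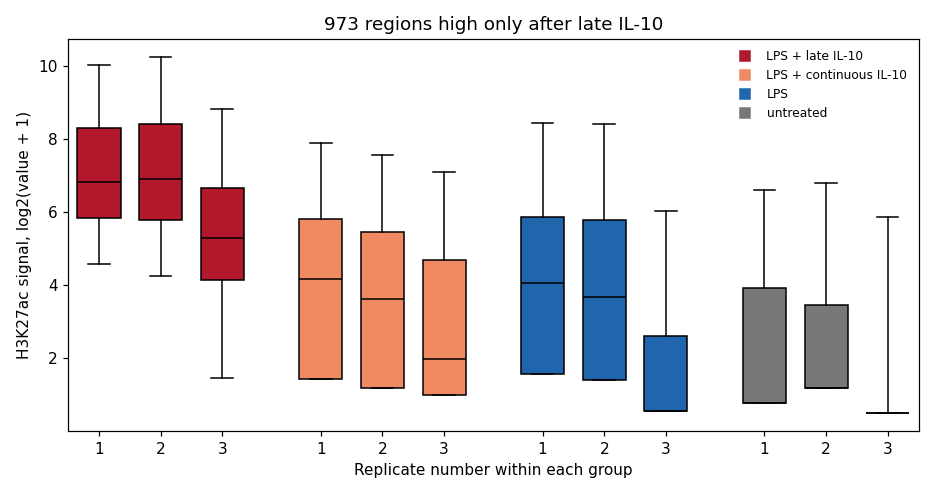
H3K27ac signal of the 973 regions in each of the 12 libraries, as log2(value + 1), with boxes from the lower to the upper quartile, a line at the median and whiskers from the 5th to the 95th percentile. The late IL-10 libraries lie highest, as the rule requires, with replicate 3 (median signal 38.1) below replicates 1 and 2 (113 and 118), and replicate 3 is also the lowest of the continuous IL-10 and LPS libraries.

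The margin of late IL-10 over the highest other mean had a median of 2.15 and a highest value of 7.51 on the log2 scale. It was under 2 in 390 regions and 3 or more in 179. All 3 late IL-10 libraries lay above all 9 others in 421 regions (43.3%), against 2.08% of regions under 20 kb, a contrast that the rule itself used. They did so by 3 or more on the log2 scale in 12 regions, against 0.0308%. In 55 regions none of the 9 other libraries held more than 3 reads.

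The widest margin belonged to a region inside Por, which encodes the reductase that passes electrons to cytochrome P450 enzymes (chr5:135663631-135672446). Its signal was 817, 758 and 117 in late IL-10 replicates 1, 2 and 3, and all 9 other libraries lay at 1 read. The late IL-10 mean was at least 143-fold higher than continuous IL-10, at least 137-fold higher than LPS and at least 236-fold higher than untreated cells, each bound being computed against 3 reads per library. Beside Foxd2, a forkhead transcription factor gene, a region 5013 bp away (chr4:114913911-114919009) had 294, 271 and 140 with late IL-10 and 1 read in the 9 others. A region nearest to Bcl11a, a zinc finger transcription factor gene of blood cell development (chr11:24198010-24203389), had 120, 84.2 and 95.7 with late IL-10, the most even of the 12 widest margins, and 1 read in the 9 others. The late IL-10 libraries of these 3 regions did not overlap the others.

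Selp, the gene of the adhesion molecule P-selectin, had its start in a region (chr1:164110338-164125546) with 955, 991 and 236 with late IL-10, 1 read in every continuous IL-10 and LPS library, and 12, 44.1 and 0.419 in untreated cells. The mark was thus above 1 read in 2 of 3 untreated libraries and in none with LPS or continuous IL-10. Tnfsf18, which encodes the ligand of the co-stimulatory receptor GITR, was the nearest gene, 51876 bp away, to a region (chr1:161557166-161561824) with 313, 161 and 69.97 with late IL-10. There the 6 libraries with continuous IL-10 or LPS lay at 1 read and the highest untreated library had 6.30. Kcnk10, a potassium channel gene, held a region (chr12:98567300-98573079) with 387, 374 and 227 with late IL-10, 13.5, 10.2 and 0.986 with continuous IL-10, and 1 read in the LPS and untreated libraries. An olfactory receptor gene, Olfr701, had its start in a region with 759, 1217 and 229 with late IL-10, 50.6, 1.27 and 0.986 with continuous IL-10, 63.0, 16.8 and 0.464 with LPS, and 1 read in untreated cells.

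The other 5 of the 12 widest margins lay in or near Fmo9, Fggy, Rapgef6, Akr1b3 and Myh11. The region near Fmo9 varied most between late IL-10 libraries, with 498 and 493 in late IL-10 replicates 1 and 2 and 14.2 in replicate 3. Fggy had 275, 323 and 39.9, and the same gene, a carbohydrate kinase, held 7 of the 973 regions, the most of any gene.

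**Figure D2:**
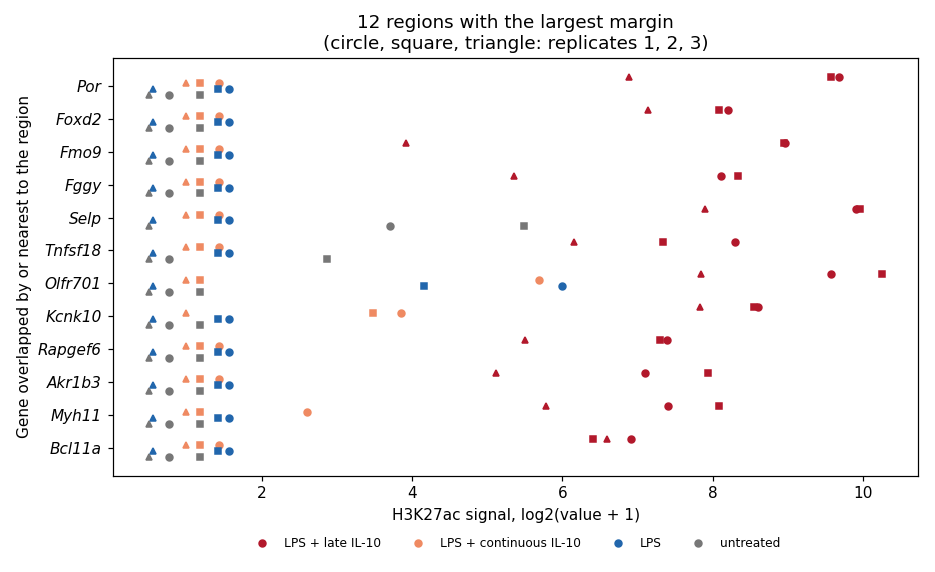
H3K27ac signal, as log2(value + 1), of the 12 regions with the widest margin of late IL-10 over the highest other group mean, 1 row per region, with a point per library. Late IL-10 points lie to the right of every other point in each row, and replicate 3 is the lowest late IL-10 library in all rows but the one of Bcl11a.

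In the strongest regions the other groups were marked as well. The highest late IL-10 mean was in Slc24a4, a sodium, potassium and calcium exchanger gene (chr12:102239616-102259105), with 3619, 4271 and 2249 with late IL-10, 602, 343 and 539 with continuous IL-10, 453, 731 and 181 with LPS, and 103, 20.2 and 24.7 in untreated cells. Fyn, which encodes a Src-family kinase, held a region (chr10:39410466-39423779) that stayed marked without any stimulus, with 3346, 3952 and 1824 with late IL-10, against 1136, 894 and 761 with continuous IL-10, 1082, 1070 and 484 with LPS, and 987, 1159 and 811 in untreated cells. A region 73513 bp from Bcl2l11, the gene of the apoptosis inducer Bim (chr2:128236060-128255303), had 1839, 2462 and 1779 with late IL-10, 233, 221 and 477 with continuous IL-10, 549, 768 and 323 with LPS and 308, 166 and 175 in untreated cells. In all 3 the late IL-10 libraries lay above the 9 others.

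Near the thresholds, regions inside and outside differed little. The 3 with the smallest margin kept, near Fam174a, Scaf8 and no gene, and the 3 just left out, in Erc1, in Trpm3 and near no gene, all had a margin of 1.5 to the digits given. At the level threshold, Masp1, with 37.0, 5.38 and 15.9 in the late IL-10 libraries, was kept, and Erg28, with 33.5, 25.1 and 3.54, was not. The width limit left out a region of Hivep2 with 1928, 2670 and 1180 with late IL-10, a margin of 1.62.

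The choice was then made on replicate numbers apart from the one read, so that the same measure could be seen in libraries the choice had not used. Chosen on replicates 2 and 3, 1047 regions met the rule, and late IL-10 exceeded the highest other library of replicate 1 in 81.7% of them, against 19.9% of all regions under 20 kb. Chosen without replicate 2, 1001 regions met it, and the share was 84.3%, against 23.6%. Chosen without replicate 3, 981 met it, and the share was 75.1%, against 18.1%. In replicate 2 a region at 1 read in every group counted as exceeding, through the library factors alone. There 1 read was worth 1.79 with late IL-10 and 1.27, 1.68 and 1.26 with continuous IL-10, LPS and untreated cells. In replicates 1 and 3 the value of 1 read was not highest with late IL-10, so these shares are not fully alike. The full margin of 1.5 was reached in the library left out by 42.0%, 50.05% and 43.9% of the chosen regions for replicates 1, 2 and 3, against 3.06%, 3.33% and 3.52% of all regions. The median difference was 1.28, 1.504 and 1.24. The same difference had medians of 1.80, 2.06 and 2.03 in replicates 1, 2 and 3 of the 973 regions, which were chosen on all 3. Among the 973, late IL-10 was the highest of the 4 libraries of its number in all 3 numbers for 832 regions (85.5%), and reached 1.5 in all 3 for 278, as part of what the rule used.

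**Figure D3:**
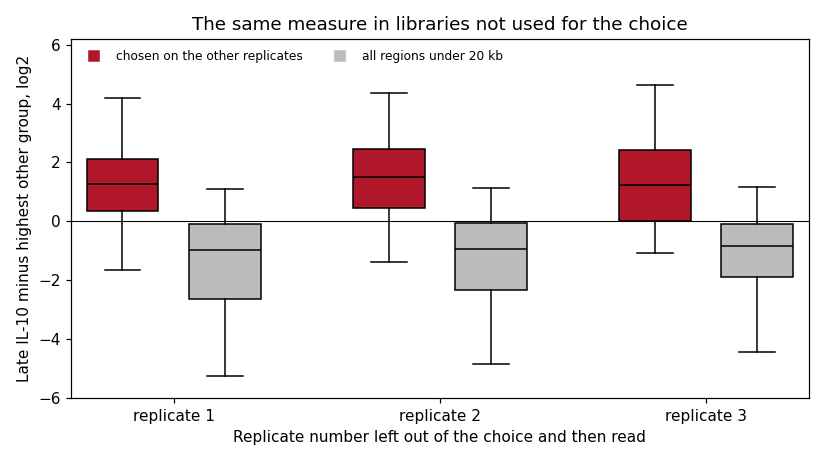
Late IL-10 minus the highest of the 3 other libraries of the same replicate number, on the log2 scale, for regions chosen on the other replicates and for all regions under 20 kb, with boxes at the quartiles, a line at the median and whiskers from the 5th to the 95th percentile. The chosen regions have medians of 1.28, 1.504 and 1.24 in replicates 1, 2 and 3, and all regions have medians of -0.97, -0.93 and -0.83.

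The regions lay mostly away from gene starts. A start was inside 53 of the 973 (5.45%), against 20.9% of all regions under 20 kb. Another 505 (51.9%) lay within a protein-coding gene, 319 (32.8%) within 100 kb of one and 96 (9.87%) farther off, against 46.3%, 25.7% and 7.08% of all regions. The median distance to a start was 42438 bp, against 22734.5 bp, and the median width was 3521 bp, against 2915 bp. The sets chosen by the same rule in the other groups also had low shares at starts. These were 3.59% for the regions high only with continuous IL-10, 4.83% for LPS and 8.75% for untreated cells. The regions lay on 20 chromosomes, and 320 of them (32.9%) had another of the 973 within 50 kb. The same share was not taken for other sets or for all regions, so it does not show that these regions cluster.

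The 973 regions were assigned to 717 genes, of which 128 had 2 or more and 39 had 3 or more. After Fggy, with 7 of its 22 regions under 20 kb, came Babam2 with 6 of 23, Arhgap26 with 5 of 28 and Sox5 with 5 of 16. Another 8 genes had 4. Among these 8, Steap4 had all 4 of its regions in the set, and Bcl6, Il33, Spred1 and Tnfsf4 had 4 of 7 each. Hibadh had 4 of 8, Irs2 4 of 13 and Iqgap2 4 of 16. Ccdc162, Cnn3 and Epb41l4b had 3 of 3 each. Steap4, Bcl6, Il33 and Spred1 were picked for description after their values were seen.

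**Figure D4:**
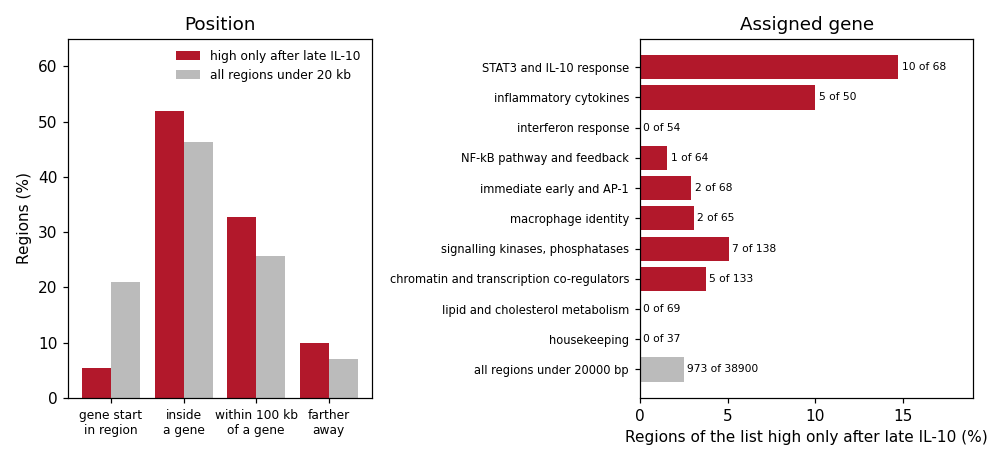
Left, the share of regions with a gene start inside, within a gene, within 100 kb of a gene or farther away, for the 973 regions and for all regions under 20 kb, in percent. Right, the share of the regions assigned to each gene list that were high only after late IL-10, in percent, where the list of STAT3 and IL-10 response genes has the highest share, 10 of 68, beside 973 of 38900 for all regions. The lists were written with earlier results of these data known.

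By function, the list of STAT3 and IL-10 response genes had the highest share of its regions among the 973, with 10 of 68 (14.7%), against 2.50% of all regions. The lists were written with earlier results of these data known, so their order is a description and no independent support. The 10 regions belonged to only 4 of its 16 genes with a region, Bcl6, Jak1, Mrc1 and Tnip3, and regions of 1 gene are not independent. Bcl6 encodes a transcriptional repressor of inflammatory genes. Its region 285 bp outside the gene (chr16:23954040-23964765) had 1095, 1002 and 484 with late IL-10, 329, 160 and 134 with continuous IL-10, 31.5, 38.7 and 37.1 with LPS and 1 read in untreated cells. A second one, 32005 bp away (chr16:24020871-24033241), had 1256, 1027 and 482 with late IL-10, 142, 24.1 and 137 with continuous IL-10, 512, 331 and 50.5 with LPS, and 5.66, 47.9 and 0.419 in untreated cells. In the first the 4 groups did not overlap, and in the second the lowest late IL-10 library and the highest LPS library overlapped. In Jak1, the kinase of the IL-10 receptor (chr4:101211356-101226779), the values were 805, 1299 and 452 with late IL-10, 150, 103 and 95.6 with continuous IL-10, 374, 452 and 79.8 with LPS and 192, 137 and 96.3 in untreated cells, so that the lowest late IL-10 library did not exceed the highest LPS library. Mrc1, the mannose receptor gene, had 3 regions in the set.

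Inflammatory cytokine genes had 5 of 50 regions (10.0%), from Il33, an alarmin of the IL-1 family, and Lif, an IL-6 family cytokine. The region holding the start of Il33 (chr19:29923660-29925411) had 188, 73.5 and 11.5 with late IL-10, 1 read in all 3 continuous IL-10 libraries, 23.6, 5.04 and 0.464 with LPS and 1 read in untreated cells. The strongest Il33 region, 32484 bp from the gene (chr19:29883383-29892629), had 1018, 939 and 51.4 with late IL-10, 236, 124 and 0.986 with continuous IL-10, 64.9, 82.3 and 0.464 with LPS and 1 read in untreated cells. Late IL-10 replicate 3 lay within the range of the other libraries in both Il33 regions. Beside Lif, a region 5095 bp away (chr11:4249704-4252473) had 114, 55.5 and 61.1 with late IL-10, 1.69, 16.5 and 0.986 with continuous IL-10 and 1 read in the LPS and untreated libraries, with no overlap.

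Signalling kinases and phosphatases had 7 of 138 regions (5.07%), from Dusp6, Socs1, Spred1 and Syk. Spred1 is an inhibitor of Ras and ERK signalling, and its strongest region, 77637 bp from the gene (chr2:117031878-117043434) had 699, 815 and 336 with late IL-10, 82.6, 112 and 50.3 with continuous IL-10, 360, 224 and 5.56 with LPS and 26.9, 31.5 and 0.419 in untreated cells. There late IL-10 replicate 3 lay below LPS replicate 1. Chromatin regulators had 5 of 133 (3.76%), all at the histone deacetylase genes Hdac2, Hdac7 and Hdac9. Macrophage identity genes had 2 of 65 (3.08%), both in Mertk, the receptor for the uptake of apoptotic cells. Immediate early genes had 2 of 68 (2.94%), at Fosl2 and Myc, and the NF-kB list had 1 of 64 (1.56%), near Tank. None of the 54 regions of interferon response genes, the 69 of lipid and cholesterol genes or the 37 of housekeeping genes was in the set. Over lists, the median of late IL-10 minus the highest other mean was 0.03 for the STAT3 and IL-10 list, -0.21 for the interferon list and -0.82 for all regions.

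Steap4 encodes a metalloreductase that takes part in iron and copper uptake. The region of its start (chr5:7954052-7963445) had 747, 975 and 171 with late IL-10, 206, 63.5 and 5.91 with continuous IL-10, and 1 read in all LPS and untreated libraries. Its region beyond the gene, 5274 bp away (chr5:7987487-7996612), had 296, 222 and 47.8 with late IL-10, 13.5, 1.27 and 0.986 with continuous IL-10 and 1 read elsewhere. Neither exceeded 1 read in any LPS library. At the start, late IL-10 replicate 3 lay below continuous IL-10 replicate 1, so that late and continuous IL-10 overlapped.

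The other promoters with a GAS match printed above, also picked after their values were seen, differed in how the remaining groups stood. Tnfrsf9, the gene of a co-stimulatory receptor of the TNF receptor family (chr4:150923918-150929574), had 303, 305 and 80.6 with late IL-10, 15.2, 35.6 and 0.986 with continuous IL-10 and 1 read with LPS and in untreated cells. Sphk1, a sphingosine kinase gene (chr11:116529472-116534514), had 402, 297 and 197 with late IL-10, 13.5, 29.2 and 45.3 with continuous IL-10 and 1 read in the 6 others. In both genes the groups with late and continuous IL-10 did not overlap each other. Casp12, an inflammatory caspase gene (chr9:5342607-5348261), was marked in every library, with 683, 581 and 349 with late IL-10, 160, 102 and 121 with continuous IL-10, 27.5, 87.4 and 38.5 with LPS and 58.7, 80.7 and 46.5 in untreated cells. Serpina3f, a serine protease inhibitor gene (chr12:104210120-104221058), had 711, 767 and 31.0 with late IL-10, 1 read with continuous IL-10, 488, 284 and 0.464 with LPS and 1 read in untreated cells, so that late IL-10 and LPS overlapped. Serpina3i had 61.6, 55.5 and 0.886 with late IL-10, 1 read with continuous IL-10, 9.84, 1.68 and 0.464 with LPS and 1 read in untreated cells. Its late IL-10 replicate 3 and LPS replicates 2 and 3 lay at 1 read, so that late IL-10 overlapped the other groups. The Serpina3 genes are near-identical copies, and no source used here states how reads were divided between them.

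Other regions with a gene start included those of Slamf1, Ccl8 and Timp1. Slamf1, a receptor of leukocyte contacts (chr1:171758805-171770872), had 2240, 2356 and 579 with late IL-10, 855, 559 and 205 with continuous IL-10, 437, 439 and 28.8 with LPS and 1 read in untreated cells. Its late IL-10 replicate 3 lay below continuous IL-10 replicate 1. Ccl8, a chemokine gene (chr11:82112839-82122119), had 923, 921 and 218 with late IL-10, 92.7, 36.8 and 31.5 with continuous IL-10, 394, 430 and 45.4 with LPS and 1 read in untreated cells. The region of Timp1, an inhibitor of matrix metalloproteinases (chrX:20861124-20872777), had 785, 695 and 356 with late IL-10, 305, 126 and 136 with continuous IL-10, 27.5, 42.0 and 24.6 with LPS and 0.707, 6.30 and 0.419 in untreated cells. Arid5a, which encodes an RNA-binding protein that stabilises inflammatory transcripts (chr1:36301601-36311273), had 1872, 1942 and 1164 with late IL-10, 288, 197 and 315 with continuous IL-10, 453, 403 and 189 with LPS and 358, 262 and 440 in untreated cells, with no overlap. The start regions of Osmr, Lrg1 and Il2ra, a receptor of the IL-6 family, a secreted glycoprotein and the alpha chain of the IL-2 receptor, had highest late IL-10 values of 51.1, 92.1 and 231. These genes were picked after their values were seen, and the highest library alone does not show whether late IL-10 overlapped the other groups.

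The other 3 groups were compared with each other by limma across 36621 regions of the whole table, with Benjamini-Hochberg adjustment and a threshold of 0.05. The rule capped the level of each of these groups but not their order. The filter on low values used the mean over all 12 libraries, so that regions at 1 read in the other groups could enter through late IL-10, and the late IL-10 libraries also entered the estimate of the spread. Of the 973, 924 passed it. Their counts and medians, and the adjusted p-values of named regions from the same fit, are a description. With the filter and the fit on the 9 other libraries alone, an alternative added after seeing the data, 632 of the 973 were tested. Comparing LPS with untreated cells, 108 regions were higher with LPS (11.7% of those tested, against 16.5% of all regions) and 18 were lower (1.95%, against 17.9%). The median log2 difference was 1.099, against -0.06 for all regions. Regions at 1 read in all 6 libraries have a difference of 0.36 on this scale from the library factors alone. With the replicate number as a block, 270 were higher (29.2%, against 24.1% of all regions) and 35 lower (3.79%, against 24.9%). The share higher with LPS thus lay below that of all regions without the block and above it with the block, and with edgeR (27.2%, against 19.7%) and DESeq2 (35.6%, against 23.3%) it also lay above. The share lower with LPS was below that of all regions in each of these. In 494 of the 973 no untreated library held more than 3 reads (50.8%, against 16.5%), leaving little room for a lower call. The rule also left out regions highest in untreated cells, so the low share follows in part from the choice. In the 9 other libraries alone, 92 were higher (14.6%, against 16.1%) and 15 lower (2.37%, against 19.1%). The count of higher regions was 63 without LPS replicate 1, 66 without LPS replicate 2, 300 without LPS replicate 3 and 65 without untreated replicate 3, and the count of lower ones was 28 without untreated replicate 3. No share of all regions is given for these fits. Their counts thus do not separate a change of the members from one of the whole table.

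Among named regions, Ccl8 was higher with LPS than in untreated cells by 6.82 on the log2 scale (SE 0.92, limma adjusted p = 1.24e-04), Slamf1 by 6.67 (SE 0.96, limma adjusted p = 1.99e-04), the Bcl6 region beside the gene by 4.38 (SE 0.62, limma adjusted p = 1.76e-04) and Slc24a4 by 3.36 (SE 0.62, limma adjusted p = 0.00106). Optn, the gene of the autophagy receptor optineurin (chr2:5031196-5046242), had 2018, 2021 and 1039 with late IL-10, 833, 530 and 268 with continuous IL-10, 364, 218 and 13 with LPS and 1 read in untreated cells, and was higher with LPS than in untreated cells by 5.88 (limma adjusted p = 4.96e-04). Susd1 went the other way (chr4:59325219-59343275). It had 3475, 4105 and 1278 with late IL-10, 1195, 770 and 776 with continuous IL-10, 177, 131 and 0.464 with LPS and 879, 1169 and 626 in untreated cells, and LPS was lower than untreated (log2 difference -4.73, SE 1.30, limma adjusted p = 0.0128).

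Comparing continuous IL-10 with LPS, 42 regions were higher with continuous IL-10 (4.55%, against 3.28% of all regions) and 6 were lower (0.649%, against 3.24%). The median log2 difference was 0.25, against 0.02. With the replicate number as a block, 87 were higher (9.42%, against 7.42%) and 29 lower (3.14%, against 8.98%). In the 9 other libraries alone, 33 were higher (5.22%, against 2.95%) and 4 lower (0.633%, against 2.87%). Without replicate 3 of every group the median turned to -0.19, against -0.12 for all regions, with 61 higher (6.37%, against 5.33%) and 73 lower (7.63%, against 9.67%). The count of higher regions was between 20 and 26 without any 1 of the continuous IL-10 libraries and 24 without LPS replicate 2, and the count of lower ones was 57 without LPS replicate 3 and 1 or 2 without any 1 of the other 5 libraries. These counts, too, have no share of all regions beside them. Sphk1 was higher with continuous IL-10 than with LPS by 3.59 (SE 0.78, limma adjusted p = 0.0165), the Bcl6 region beside the gene by 2.40 (SE 0.62, limma adjusted p = 0.0370), the Steap4 start by 4.32 (SE 1.14, limma adjusted p = 0.0402) and Susd1 by 4.78 (SE 1.30, limma adjusted p = 0.0450). All 4 calls ended when single libraries were left out, with limma adjusted p of up to 0.0668, 0.149, 0.145 and 0.126 for Sphk1, Bcl6, Steap4 and Susd1. Those leave-outs were of continuous IL-10 replicates 2 and 3 for Sphk1, continuous IL-10 replicates 1, 2 and 3 for Susd1, continuous IL-10 replicates 1 and 2 and any LPS replicate for Steap4, and any continuous IL-10 replicate and LPS replicates 1 and 2 for Bcl6. The Susd1 call also ended with edgeR (edgeR adjusted p = 0.107) and with a pseudocount of 0.5 (limma adjusted p = 0.0529), and the Steap4 call with a pseudocount of 5 (limma adjusted p = 0.0695).

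Comparing continuous IL-10 with untreated cells, 135 regions were higher with continuous IL-10 (14.6%, against 11.0% of all regions) and 2 were lower (0.216%, against 12.4%). As with LPS, the low share below untreated cells follows in part from the choice. The median log2 difference was 1.38, against -0.04. In the 9 other libraries alone, 115 were higher (18.2%, against 10.6%) and 2 lower (0.316%, against 13.3%). Optn was higher with continuous IL-10 by 8.12 (limma adjusted p = 6.86e-05), Slamf1 by 8.03 (limma adjusted p = 7.29e-05), Steap4 by 4.68 (limma adjusted p = 0.00914) and Sphk1 by 3.95 (limma adjusted p = 0.00236). The comparisons share libraries, so their counts are not independent of each other.

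Late IL-10 was also compared in the regions next to the 973. These lie beside regions picked as high in the same libraries, so their shares are a description and no independent support. The nearest other consensus region on each side within 50 kb gave 1270 neighbours, and 1177 passed the filter. Of the 1270, 86 were 20 kb or wider, and 11 of these met the level and the margin of the rule and were left out by their width alone. Against LPS, 92 neighbours were higher with late IL-10 (7.82%, against 3.14% of all regions) and 1 was lower (0.0850%, against 0.396%), with a median log2 difference of 0.57, against -0.12. Against continuous IL-10, 42 were higher with late IL-10 (3.57%, against 1.86%) and 1 was lower (0.0850%, against 0.852%), with a median of 0.76, against -0.02. Against untreated cells, 387 were higher with late IL-10 (32.9%, against 18.1%) and 79 were lower (6.71%, against 18.6%), with a median of 1.21, against -0.11. Among the 1091 tested neighbours under 20 kb, 67 were higher with late IL-10 than with LPS (6.14%), 25 than with continuous IL-10 (2.29%) and 326 than in untreated cells (29.9%). With the replicate number as a block, 178 were higher with late IL-10 than with LPS (15.1%, against 6.17% of all regions) and 3 lower (0.255%, against 1.92%). Against continuous IL-10, 197 were higher with the block (16.7%, against 8.02%) and 7 lower (0.595%, against 4.96%), and against untreated cells 121 were lower (10.3%, against 26.0%). Against LPS, 51 were higher without late IL-10 replicate 1 and 53 without replicate 2. Against continuous IL-10 the count was 2, 7 and 100 without late IL-10 replicates 1, 2 and 3, and 26, 9 and 17 without continuous IL-10 replicates 1, 2 and 3. The count of neighbours lower than in untreated cells was 48 without late IL-10 replicate 1 and 42, 47 and 45 without untreated replicates 1, 2 and 3. For fits that left out 1 library no share of all regions is given, so a change of the whole table is not told apart.

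The largest neighbour difference from LPS was inside Srgap3 (chr6:112748844-112772389), a region 23545 bp wide that met the level and the margin. Its signal was 1483, 1664 and 694 with late IL-10, 209, 192 and 142 with continuous IL-10 and 1 read in every LPS and untreated library. The log2 difference of late IL-10 from LPS was 9.05, given with no test because the region met the rule's level and margin. The neighbours named next were picked for large differences from LPS, so their adjusted p-values are a description. A region near Syk, the kinase downstream of immune receptors (chr13:52701683-52729096), had 993, 862 and 1027 with late IL-10, 167, 291 and 340 with continuous IL-10, 27.5, 1.68 and 0.464 with LPS, and 496, 189 and 642 in untreated cells (log2 difference from LPS 7.64, SE 0.88, limma adjusted p = 3.49e-04). Map3k7cl held a neighbour (chr16:87593010-87605432) with 310, 328 and 255 with late IL-10, 1.69, 1.27 and 33.5 with continuous IL-10, 1 read with LPS and 185, 73.1 and 121 in untreated cells, and it was higher with late IL-10 than with LPS by 7.03 (limma adjusted p = 0.00138) and than with continuous IL-10 by 5.64 (limma adjusted p = 0.0137). Near Syk and in Map3k7cl the untreated libraries thus lay above all LPS libraries, while in Srgap3 neither LPS nor untreated cells had any value above 1 read.

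**Figure D5:**
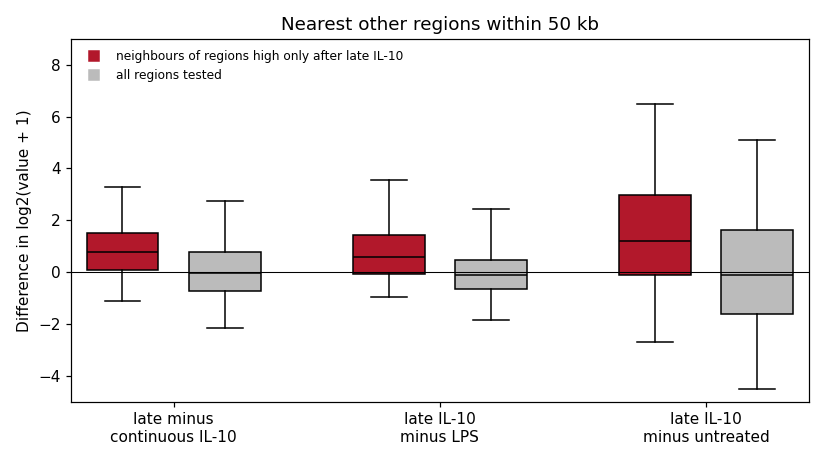
Differences in log2(value + 1) of late IL-10 minus continuous IL-10, LPS and untreated cells, for the neighbours within 50 kb of the 973 regions and for all regions tested, with boxes at the quartiles, a line at the median and whiskers from the 5th to the 95th percentile. The neighbours' medians are 0.76, 0.57 and 1.21, and those of all regions are -0.02, -0.12 and -0.11.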

How the data were processed

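H3K27ac ChIP-seq was analysed in 12 libraries, 3 in each of 4 groups. The input library was left out. The submitters' processing notes name DiffBind, MACS2, Bowtie2 and Trim Galore, with the mm10 build, and state neither role nor version. The authors deposited a signal per library for each consensus region. In each library 100% of values were whole multiples of the lowest one (tolerance 0.0001 reads), so the signal equals reads times 1 factor per library. No source used here says whether input reads were taken off. A region at 1 read is therefore not shown to lack the mark, and a fold against it holds for the deposited values alone. The reads recovered (5149730 to 26922552 per library) limit precision in weak regions.

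The members and gene lists were chosen with earlier results of these data known. The design allowed limma for scaled values and edgeR for raw counts. As values are scaled, limma 3.58.1 (trend, robust) in R 4.3.3 was fitted to log2(value + 1) of all 12 libraries with group as the only term. Regions with a mean above the 10th percentile were tested, with Benjamini-Hochberg adjustment over all of them. This scale understates changes of weak regions. edgeR 4.0.16 and DESeq2 1.42.0 on recovered reads were alternatives. The fit was tested on simulated data. Tables and figures were made with Python 3.11.15, pandas 2.3.3 and matplotlib 3.10.9.

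Libraries of the same number came from 1 of 3 pools as the series' design text is read here, and their deviations from group means correlated at 0.0993 to 0.712 over 18 pairs. Only the pair of continuous IL-10 1 and untreated 1 fell below 0.1, so the number was taken to pair every comparison but that of these groups. That exception rests on this 1 pair, as the pairs of replicates 2 and 3 of these groups correlated at 0.167 and 0.378. The main fit had no term for the pairing, so the adjusted p-values of named regions leave it out. Genes are those a region overlaps, or the nearest protein-coding gene within 100 kb, from a RefSeq table of GRCm38.p6. Regions are named by rule: the 12 widest margins, the 12 highest late IL-10 means, gaps of 3 or more, up to 3 for each gene list, those just inside and outside each threshold, and 6 with a gene start. Others were chosen after their values were seen. Neighbours are described by their largest differences.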

Additional observations from a re-analysis of the deposited data

How the results depend on the processing

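The number of regions was 1682 at a margin of 1 and 583 at a margin of 2, and between 666 (without LPS replicate 3) and 2089 (without late IL-10 replicate 3) when 1 library was left out. Other pseudocounts, levels, scaling, medians and no width limit kept it within 1.5 times. Comparing LPS with untreated cells, the members called higher and lower numbered 251 and 29 with edgeR (27.2% and 3.14%, against 19.7% and 14.8% of all regions), 328 and 43 with DESeq2 (35.6% and 4.66%, against 23.3% and 18.2%), and 300 and 35 without replicate 3 of every group (31.3% and 3.66%, against 23.4% and 21.1%). Leaving out 1 library gave 63 to 300 higher and 12 to 28 lower. Counts with 1 library left out, here and below, have no share of all regions beside them. The replicate block gave 270 and 35 (29.2% and 3.79%, against 24.1% and 24.9%). Comparing continuous IL-10 with LPS, DESeq2 called 86 higher and 41 lower (9.33% and 4.45%, against 5.23% and 7.74%), edgeR 12 lower (1.3%, against 2.85%), pseudocount 5 gave 3 lower (0.316%, against 3.52%), and the data without replicate 3 of every group gave 61 higher and 73 lower (6.37% and 7.63%, against 5.33% and 9.67%). The 9 libraries without late IL-10 alone gave 4 lower (0.633%, against 2.87%). Leaving out 1 library gave 20 to 42 higher and 1 to 57 lower. The replicate block gave 87 and 29 (9.42% and 3.14%, against 7.42% and 8.98%). Comparing continuous IL-10 with untreated cells, edgeR called 205 higher (22.2%, against 11.5%), DESeq2 314 higher and 13 lower (34.1% and 1.41%, against 15.9% and 14.2%), the data without replicate 3 of every group gave 241 and 15 (25.2% and 1.57%, against 15.0% and 15.9%), and median centring 1 lower (0.108%, against 9.61%). Leaving out 1 library gave 97 to 183 higher and 1 to 5 lower. The replicate block gave 274 and 10 there (29.7% and 1.08%, against 17.0% and 18.8%), where the pair of replicate 1 libraries correlated at only 0.0993.

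Neighbours higher with late IL-10 than with LPS numbered 178 with the replicate block (15.1%, against 6.17% of all regions), 137 without replicate 3 of every group (11.6%, against 3.91%) and 51 to 107 with 1 library left out. Those lower numbered 3 with the block, 2 with no filter, 0 with median centring and with edgeR, and 0 to 2 with 1 library left out. Against continuous IL-10, 197 were higher and 7 lower with the replicate block (16.7% and 0.595%, against 8.02% and 4.96%), 153 and 5 with DESeq2 (13.5% and 0.44%, against 6.2% and 2.6%), 224 and 5 without replicate 3 of every group (19% and 0.424%, against 8.56% and 3.71%), and edgeR called 0 lower. Leaving out 1 library gave 2 to 100 higher and 0 to 3 lower. Against untreated cells, 121 were lower with the block (10.3%, against 26.0%) and 51 with the filter at the 30th percentile (5.47%, against 16.3%). With 1 library left out 268 to 450 were higher and 42 to 76 lower. Without replicate 3 of every group 505 were higher and 92 lower (42.8% and 7.8%, against 23.5% and 21.6%). The replicate block moved no other count by over 1.5 times. With a pseudocount of 5, late IL-10 exceeded the others in the replicate left out in 90.2%, 94.0% and 80.4% of chosen regions for replicates 1, 2 and 3. Of 120 recomputed values that left out no single replicate, 85 kept their side or size and 35 did not. Many of these values are counts, which cannot change sign. Without replicate 3 of every group, the members' median difference of continuous IL-10 from LPS turned from 0.25 to -0.19. The members' share higher with LPS than in untreated cells lay below that of all regions in the main fit. It lay above with the block, edgeR and DESeq2. The causes were not tested. Median centring shifted the groups by 0.02 (late IL-10), 0.15 (continuous IL-10), 0.03 (LPS) and -0.20 (untreated) on the log2 scale. Values at or under 3 reads were treated as the floor, which limits what weak regions can show.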

Other observations

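MicroRNA hairpins lay inside 3 of the 973 regions. Mir9-1 and Mir3093 lay in a region (chr3:88214824-88216135) with 52.8, 28.7 and 44.3 with late IL-10, 1 or 2 reads in each continuous IL-10 library, 1.97, 1.68 and 50.5 with LPS and 0.707, 1.26 and 3.77 in untreated cells. LPS replicate 3 thus reached the late IL-10 values, while the other LPS libraries lay at 1 read. Mir92b lay in the region of the Muc1 start (chr3:89226840-89235729), with 995, 923 and 1147 with late IL-10, 228, 168 and 494 with continuous IL-10, 126, 52.1 and 115 with LPS and 254, 160 and 335 in untreated cells. There late IL-10 replicate 3 was the highest of its group. Mir5617 lay in the Timp1 region. The mature forms of the better known pair are given from RefSeq (GRCm38.p6), with the seed, bases 2 to 8, in capitals.
mmu-miR-9-5p: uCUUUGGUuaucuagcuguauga
mmu-miR-92b-3p: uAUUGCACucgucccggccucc
Histone acetylation at a hairpin does not measure the microRNA.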
